A study of Mus musculus with 6 samples.

Results

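The glycolysis and hypoxia response genes were 37 listed symbols, chosen by name and by known function, and all 37 were found in both deposited count tables, among 17296 symbols that the tables share. They comprised glucose and lactate transporters, the enzymes that carry glucose to pyruvate and lactate, the kinases that control the use of pyruvate, other targets of the hypoxia-inducible factor HIF, and HIF-1α with the enzymes that regulate it. Glycolysis splits glucose into pyruvate, and lactate dehydrogenase turns pyruvate into lactate, which monocarboxylate transporters carry out of the cell. When oxygen is plentiful, prolyl hydroxylases mark HIF-1α for destruction. When oxygen is low, HIF-1α accumulates, pairs with ARNT at DNA holding the core letters ACGTG or GCGTG, and raises transcription of most glycolytic enzymes and of genes for angiogenesis and mitophagy. The early epiblast and neural plate are known for high glycolysis, which drops as neural cells differentiate.

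The samples were mouse neural tube organoids, grown in Matrigel from 1 embryonic stem cell line that carries Sox1::eGFP and Bra::mCherry reporters, and profiled by single-cell RNA sequencing (10x 3′ v3 chemistry). The groups were non-elongated organoids at day 6 (1 library), elongated organoids at day 6 (2 libraries, from batch 1 and batch 2), and elongated organoids at day 7, day 8 and day 10 (1 library each). All cultures received bFGF and activin-A for the first 3 days and N2B27 alone afterwards. Organoids kept beyond day 6 were freed from the gel with collagenase IV and dispase, embedded anew and fed every day, so this handling and the day of culture cannot be told apart. Each library pooled many organoids.

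The non-elongated library and the first elongated day 6 library were deposited in 1 table and the other 4 libraries in another. The libraries held 2076 to 3677 cells and 74072752 to 152742819 UMIs (unique molecules counted), with a median of 22053 to 59014 UMIs per cell. Pairs of libraries shared 1 to 4 cell barcodes. The tables were filtered differently: cells of the first had 3502 to 7498 genes and at most 7.49% mitochondrial UMIs, and 77.4% to 89.5% of the cells of the second table lay inside that range. The markers of neural progenitors summed to 270 CPM in non-elongated organoids and to 460, 583, 1441, 3228 and 2808 CPM in the elongated libraries of batch 1 day 6, batch 2 day 6, day 7, day 8 and day 10. Vim and Fabp7 gave most of the later sums, with 1274 and 1108 CPM at day 8 and 1298 and 957 CPM at day 10. Over the 7 progenitor markers, the median log2 fold change at day 10 against day 6 was 1.34, with 2 below 0. Sox1 was lower at day 10 than in either elongated day 6 library (log2 differences of -1.35 and -2.07). The markers of neurons summed to 150 CPM in non-elongated organoids and to 193, 209, 163, 848 and 3029 CPM in the elongated libraries in the same order. Stmn2 alone gave 144 and 159 CPM of the elongated day 6 sums and 42.4 CPM at day 7. Over the 8 neuron markers, the median log2 fold change at day 7 against day 6 was 1.57, with 2 below 0.

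Members were high in all day 6 libraries, far lower at day 7, lowest at day 8, and in part higher again at day 10. Summed over the 37 members, the level was 20700 CPM in non-elongated organoids, and 21645 and 17951 CPM in the elongated day 6 libraries, 7224 CPM at day 7, 5880 CPM at day 8 and 8138 CPM at day 10. CPM here means UMIs per 1000000 UMIs of a library, scaled by trimmed means (TMM). Each group was fitted with edgeR's quasi-likelihood test across 16379 genes, and a gene was called at a Benjamini-Hochberg adjusted p under 0.05. Against the elongated day 6 libraries, 17 members fell and 0 rose at day 7, where 2.09% of all genes were called lower and 1.9% higher. At day 8, 26 members fell and 0 rose, against 6.64% of all genes lower and 6.74% higher. At day 10, 18 members fell and 2 rose, against 12.3% of all genes lower and 14.1% higher. In cells inside the range of genes and mitochondrial share common to both tables, 8 members fell at day 7, and the calls of Slc2a1, Slc2a3, Hk2, Pfkl, Pgk1, Pgam1, Eno1, Pkm and Ankrd37 were lost. The median log2 fold change over the 37 members was -1.44 at day 7, -2.05 at day 8 and -1.01 at day 10, while that over all genes lay within 0.02 of 0 each time. In a bulk sum, fewer cells of a type and less RNA per cell cannot be told apart. The only replicates were the elongated day 6 libraries, which leave 1 residual degree of freedom and differ in batch and table. The p-values therefore assume that the single libraries of day 7, day 8 and day 10 vary as that pair does.

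**Figure D1:**
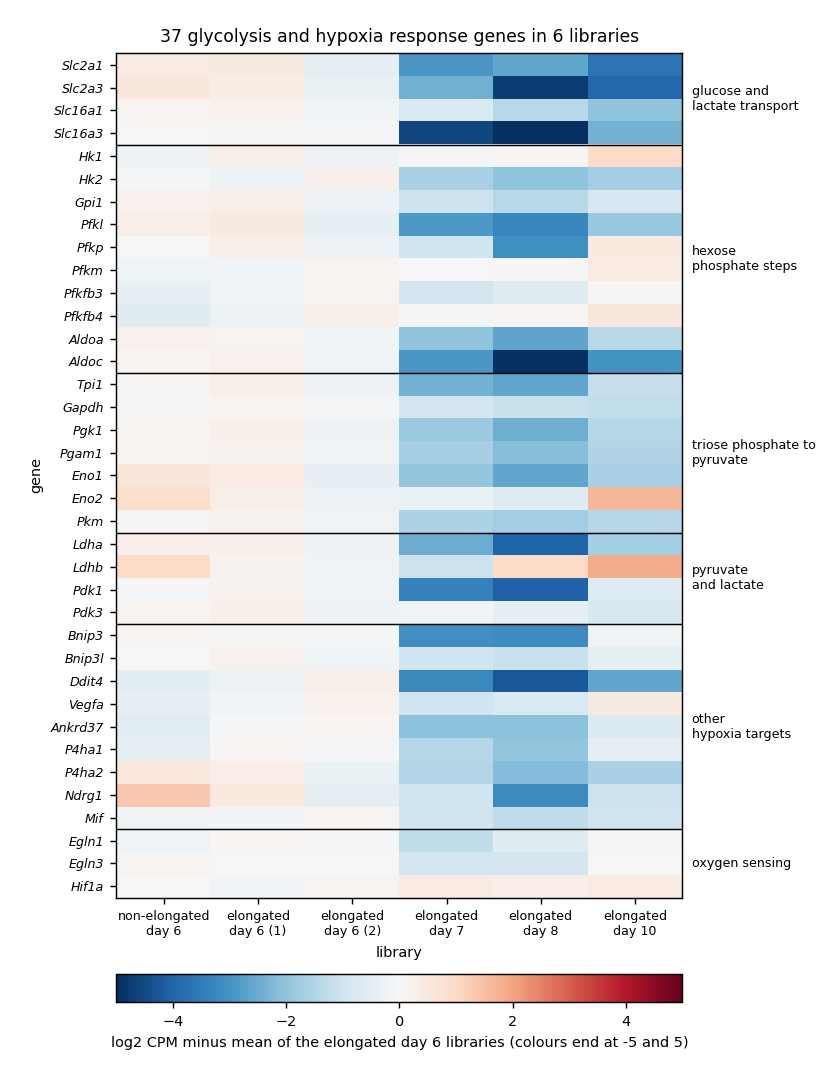
Log2 CPM of each of the 37 members (rows, grouped by role) in each of the 6 libraries (columns), minus the mean of the elongated day 6 libraries. Blue is lower and red is higher. The day 8 column holds the lowest values of Slc16a3, Ldha, Pdk1 and Aldoc, and Ldhb and Eno2 stand above day 6 at day 10.

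The pair of elongated day 6 libraries gives the size of a difference between tables and batches without a change of day. None of the members differed 2-fold between batch 2 and batch 1 (0 lower and 0 higher, against 5.44% and 5.93% of all genes), but 28 of 37 were lower in batch 2, with a median log2 difference of -0.36. Within the second table alone, where the batch 2 day 6 library is the comparison, 23 members were at least 2-fold lower at day 7 (11.6% of all genes), 25 at day 8 (15.4%) and 17 at day 10 (17.5%), while 0, 1 and 3 were at least 2-fold higher (8.52%, 13.7% and 20% of all genes). These counts come from single libraries and carry no test.

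Promoters are shown for 6 members on which the results below turn: Slc16a3, Pdk1, Bnip3 and Ldha, which fell at days 7 and 8 and were nearer to day 6 at day 10; Ldhb, which rose at day 10; and Hif1a, whose difference passed no test. Each runs from 250 bases before to 50 after the start site, 5′ to 3′ on the gene's own strand, from RefSeq on build GRCm38.p6. Capitals mark the letters ACGTG or GCGTG, the HIF core, or their reverse complements.
Slc16a3, chr11:120948817-120949116, plus strand: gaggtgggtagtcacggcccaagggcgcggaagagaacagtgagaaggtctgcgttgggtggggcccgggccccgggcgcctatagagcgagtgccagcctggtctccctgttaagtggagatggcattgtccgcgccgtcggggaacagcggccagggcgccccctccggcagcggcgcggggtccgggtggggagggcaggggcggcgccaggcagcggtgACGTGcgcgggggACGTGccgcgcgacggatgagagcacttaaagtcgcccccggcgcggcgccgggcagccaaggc
Pdk1, chr2:71872974-71873273, plus strand: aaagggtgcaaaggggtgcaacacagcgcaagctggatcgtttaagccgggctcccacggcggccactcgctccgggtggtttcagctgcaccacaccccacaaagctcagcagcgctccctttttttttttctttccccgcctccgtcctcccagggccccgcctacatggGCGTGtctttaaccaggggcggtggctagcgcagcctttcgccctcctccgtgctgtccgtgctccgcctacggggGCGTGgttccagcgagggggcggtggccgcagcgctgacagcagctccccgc
Bnip3, chr7:138909457-138909756, minus strand: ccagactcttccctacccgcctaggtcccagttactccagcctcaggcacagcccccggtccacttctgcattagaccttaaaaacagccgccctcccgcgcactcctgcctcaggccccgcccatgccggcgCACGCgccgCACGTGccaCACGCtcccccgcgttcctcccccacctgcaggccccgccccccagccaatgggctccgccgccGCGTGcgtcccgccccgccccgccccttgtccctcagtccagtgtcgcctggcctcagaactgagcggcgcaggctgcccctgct
Ldha, chr7:46845554-46845853, plus strand: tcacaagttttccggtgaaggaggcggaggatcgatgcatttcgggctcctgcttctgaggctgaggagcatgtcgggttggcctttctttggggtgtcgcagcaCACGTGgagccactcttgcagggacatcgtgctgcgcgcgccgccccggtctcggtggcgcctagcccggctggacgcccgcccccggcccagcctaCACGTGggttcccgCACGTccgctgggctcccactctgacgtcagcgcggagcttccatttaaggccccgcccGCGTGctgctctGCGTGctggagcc
Ldhb, chr6:142507908-142508207, minus strand: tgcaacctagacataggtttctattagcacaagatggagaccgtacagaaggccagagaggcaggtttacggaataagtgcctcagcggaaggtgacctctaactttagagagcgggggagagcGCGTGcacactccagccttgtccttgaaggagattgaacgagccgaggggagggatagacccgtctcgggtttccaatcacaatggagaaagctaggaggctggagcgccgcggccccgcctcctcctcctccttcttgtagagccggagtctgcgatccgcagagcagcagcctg
Hif1a, chr12:73907617-73907916, plus strand: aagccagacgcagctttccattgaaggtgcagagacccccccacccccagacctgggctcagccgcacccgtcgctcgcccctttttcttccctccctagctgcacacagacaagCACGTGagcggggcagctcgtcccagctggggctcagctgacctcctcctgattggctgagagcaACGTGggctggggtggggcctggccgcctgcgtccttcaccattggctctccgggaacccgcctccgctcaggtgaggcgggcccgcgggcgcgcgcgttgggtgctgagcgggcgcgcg

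The Ldha promoter held 5 matches to ACGTG and 2 to GCGTG, counted on both strands, so that the palindrome CACGTG, which is also the E-box of MYC and USF factors, counts as 2 matches to ACGTG. The Bnip3 promoter held 2 and 3 matches, Slc16a3 held 2 to ACGTG, and Pdk1 held 2 to GCGTG. Hif1a held 3 matches to ACGTG and Ldhb 1 to GCGTG. Of the 37 members, 34 had a listed promoter; ACGTG occurred in 21 of them (61.8%), against 19.7% of the 27025 genes with a promoter in the table. GCGTG occurred in 55.9% of the members' promoters, against 32.5% of all genes. The members' promoters also held more CG pairs, with a median of 22.5 against 7, and the part of base composition in these shares was not tested. The members were chosen by known function, which includes being a HIF target, so these shares describe the list and not a result of these data. A match in these windows is a match of letters, not evidence of binding.

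The 4 transporters made up the only role whose every member was called lower at both day 8 and day 10 (3 of 4 at day 7). Over all genes, 2.09%, 6.64% and 12.3% were called lower at day 7, day 8 and day 10. Slc2a1 and Slc2a3 encode the glucose importers GLUT1 and GLUT3. Slc2a1 stood at 554 CPM in non-elongated organoids, and at 584 and 306 CPM in the elongated day 6 libraries, 56.6 CPM at day 7, 69.0 CPM at day 8 and 33.2 CPM at day 10. The day 10 library was its lowest, below every other library, and it did not return towards day 6 (log2 fold change against day 6 of -3.75 ± 0.47 SE, edgeR adjusted p = 0.00166). Slc2a3 stood at 427 CPM in non-elongated organoids, and at 374 and 224 CPM in the elongated day 6 libraries, 55.1 CPM at day 7, 10.7 CPM at day 8 and 18.8 CPM at day 10. Its log2 fold change was -2.44 at day 7, -4.81 ± 0.45 (SE) at day 8 and -3.99 at day 10. The monocarboxylate transporters differed in course. Slc16a3, which encodes the lactate exporter MCT4, stood at 203 CPM in non-elongated organoids, and at 213 and 192 CPM in the elongated day 6 libraries, 8.62 CPM at day 7, 2.19 CPM at day 8 and 38.9 CPM at day 10. Its day 6 libraries lay close together, and its log2 fold change at day 8, -6.53 ± 0.37 (SE, edgeR adjusted p = 0.000296), was the largest in size of any member at any day. Slc16a1, which encodes MCT1, declined in steps instead: 57.1 CPM in non-elongated organoids, and 60.2 and 45.3 CPM in the elongated day 6 libraries, 31.0 CPM at day 7, 19.7 CPM at day 8 and 13.0 CPM at day 10. Its day 7 difference did not pass the test (log2 fold change -0.77, edgeR adjusted p = 0.23) and its day 8 and day 10 differences did.

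Among the 10 genes of the hexose phosphate steps, 4 fell at day 7, 6 at day 8 and 4 at day 10. The shares of all genes called lower were 2.09%, 6.64% and 12.3%. Hk2, the inducible hexokinase that traps glucose in the cell, stood at 88.3 CPM in non-elongated organoids, and at 79.1 and 114 CPM in the elongated day 6 libraries, 30.8 CPM at day 7, 23.4 CPM at day 8 and 29.4 CPM at day 10. Pfkl, the liver form of phosphofructokinase, the committed step of glycolysis, stood at 338 CPM in non-elongated organoids, and at 364 and 196 CPM in the elongated day 6 libraries, 36.5 CPM at day 7, 27.8 CPM at day 8 and 72.5 CPM at day 10. Both genes were lower in each later library than in any day 6 library, and both were called at all 3 later days. Pfkp, the platelet form, stood at 10.9 CPM in non-elongated organoids, and at 13.5 and 8.82 CPM in the elongated day 6 libraries, 5.45 CPM at day 7, 1.28 CPM at day 8 and 15.3 CPM at day 10. It fell at day 8 (log2 fold change -3.13 ± 0.45 SE, edgeR adjusted p = 0.00502), and at day 10 it lay above every day 6 library without passing the test (0.46 ± 0.37, adjusted p = 0.396). Pfkm, the muscle form, ranged from 15.4 to 23.9 CPM and Hk1, the constitutive hexokinase of brain, from 5.37 to 12.8 CPM, both highest at day 10, and neither was called at any day. Aldoa, the main aldolase, stood at 1243 CPM in non-elongated organoids, and at 1188 and 967 CPM in the elongated day 6 libraries, 263 CPM at day 7, 171 CPM at day 8 and 407 CPM at day 10. Aldoc, the brain aldolase, stood at 34.0 CPM in non-elongated organoids, and at 37.1 and 27.0 CPM in the elongated day 6 libraries, 4.17 CPM at day 7, 0.958 CPM at day 8 and 3.94 CPM at day 10. Aldoc thus showed a deeper drop than Aldoa (log2 fold change at day 8 of -5.06 against -2.66, with SE of 0.45 and 0.30); the difference between the genes was not tested. Gpi1, the isomerase between the hexokinase and phosphofructokinase steps, stood at 350 CPM in non-elongated organoids, and at 377 and 245 CPM in the elongated day 6 libraries, 146 CPM at day 7, 116 CPM at day 8 and 169 CPM at day 10. It was called at day 8 alone (-1.43 ± 0.34, edgeR adjusted p = 0.0328), and that call was lost with a minimum count of 100 and in the common range. Pfkfb3 and Pfkfb4, which make and remove the activator of phosphofructokinase, stayed between 2.44 and 12.4 CPM and passed no test.

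Of the 7 genes from triose phosphate to pyruvate, 5 fell at day 7, and 6 at both day 8 and day 10. Of all genes, 2.09%, 6.64% and 12.3% were called lower on those days. Most of the 7 are among the most abundant members. Tpi1, triose phosphate isomerase, stood at 950 CPM in non-elongated organoids, and at 1116 and 755 CPM in the elongated day 6 libraries, 179 CPM at day 7, 151 CPM at day 8 and 409 CPM at day 10. Pgk1, the first enzyme of the path that yields ATP, stood at 1430 CPM in non-elongated organoids, and at 1546 and 1103 CPM in the elongated day 6 libraries, 361 CPM at day 7, 241 CPM at day 8 and 492 CPM at day 10. Both fell at each later day, least at day 10. The 3 enzymes that follow are the mutase Pgam1, the enolase Eno1 and the pyruvate kinase Pkm. Pgam1 stood at 1399 CPM in non-elongated organoids, and at 1465 and 1148 CPM in the elongated day 6 libraries, 411 CPM at day 7, 298 CPM at day 8 and 454 CPM at day 10. Eno1 stood at 1188 CPM in non-elongated organoids, and at 1035 and 602 CPM in the elongated day 6 libraries, 204 CPM at day 7, 129 CPM at day 8 and 258 CPM at day 10. Pkm stood at 1744 CPM in non-elongated organoids, and at 1892 and 1469 CPM in the elongated day 6 libraries, 557 CPM at day 7, 500 CPM at day 8 and 614 CPM at day 10. Each was lowest at day 8 and below every day 6 library at all 3 later days. Pgam1, Eno1 and Pkm had log2 fold changes of -1.67, -2.00 and -1.59 at day 7, -2.13, -2.66 and -1.75 at day 8, and -1.53, -1.66 and -1.45 at day 10, all called. Gapdh, often used as a housekeeping standard, stood at 4178 CPM in non-elongated organoids, and at 4774 and 4139 CPM in the elongated day 6 libraries, 2340 CPM at day 7, 2047 CPM at day 8 and 1875 CPM at day 10. It was at its lowest at day 10 (log2 fold change -1.25 ± 0.24 SE, edgeR adjusted p = 0.0101), and it missed the threshold at day 7 (adjusted p = 0.0869). Gapdh has 63 near-identical copies in the annotation (at least 97% identity over 91 bases of its last 500) and Eno1 has 2, so their counts are uncertain to that extent. Eno2, the neuronal enolase, ran the other way at very low levels: 1.60 CPM in non-elongated organoids, and 1.05 and 0.701 CPM in the elongated day 6 libraries, 0.681 CPM at day 7, 0.563 CPM at day 8 and 2.77 CPM at day 10. Its rise at day 10 (log2 fold change 1.67 ± 0.51 SE, edgeR adjusted p = 0.0479) was lost in 6 of 8 alternative settings: DESeq2, no low-count filter, a minimum count of 100, thinned libraries, the common range, and the sums over the neural progenitor classes alone, where the log2 fold change was -0.19. Neuron markers rose over the same days (8 of 8 called higher at day 10, against 14.1% of all genes).

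Of the 4 genes at the fate of pyruvate, Ldha and Pdk1 fell at day 7 and day 8, and Ldhb rose at day 10. Ldha, the lactate dehydrogenase subunit that favours lactate, stood at 2504 CPM in non-elongated organoids, and at 2506 and 1793 CPM in the elongated day 6 libraries, 377 CPM at day 7, 133 CPM at day 8 and 649 CPM at day 10. The day 8 library was the lowest, and Ldha remained called at day 10 (log2 fold change -1.73 ± 0.30 SE, edgeR adjusted p = 0.00666). Ldhb, the subunit that favours pyruvate, stood at 132 CPM in non-elongated organoids, and at 74.9 and 58.7 CPM in the elongated day 6 libraries, 31.7 CPM at day 7, 133 CPM at day 8 and 240 CPM at day 10. It was lowest at day 7 and highest at day 10 (log2 fold change against day 6 of 1.85 ± 0.27 SE, edgeR adjusted p = 0.00304), and at day 8 it just missed the threshold (0.99 ± 0.27, adjusted p = 0.0505). Pdk1, a kinase that shuts pyruvate out of the citric acid cycle by inhibiting pyruvate dehydrogenase, stood at 25.9 CPM in non-elongated organoids, and at 31.3 and 23.9 CPM in the elongated day 6 libraries, 2.58 CPM at day 7, 1.65 CPM at day 8 and 17.3 CPM at day 10. At day 10 it differed from day 6 by a log2 fold change of -0.67 ± 0.34 (SE) and was not called. The annotation holds 1 near-identical copy of Ldhb. Pdk3, another such kinase, ranged from 17.9 to 36.8 CPM and was called at no day.

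**Figure D2:**
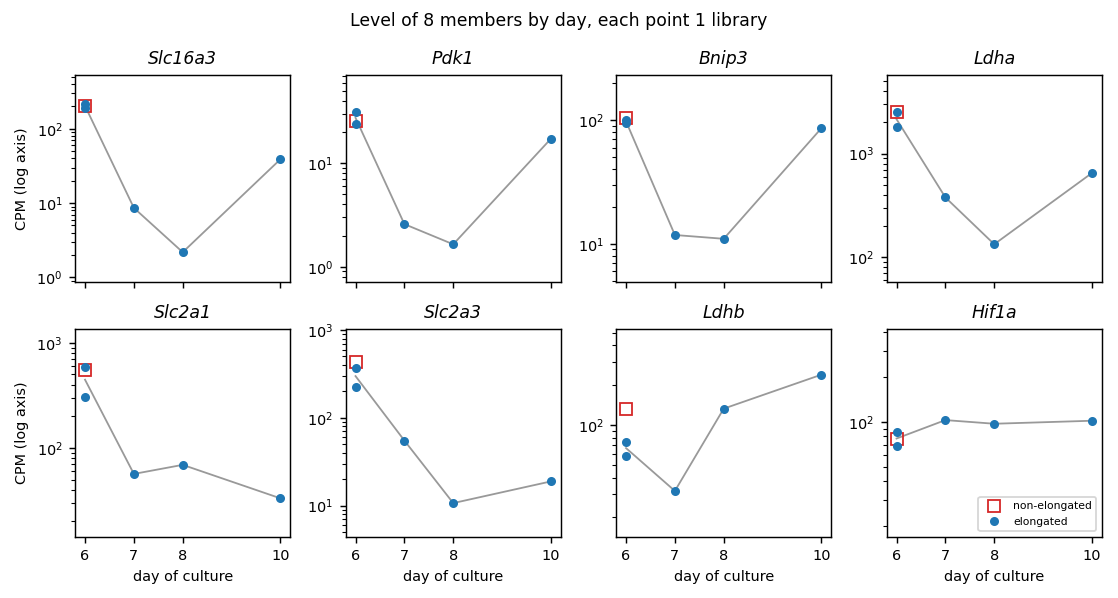
Level in CPM (log axis) of 8 members against the day of culture, with 1 point per library; squares are the non-elongated library, circles the elongated libraries, and the line joins the mean at day 6 with the later days. Slc16a3, Pdk1, Bnip3 and Ldha drop to day 8 and stand higher at day 10, Slc2a1 is lowest at day 10, Ldhb is highest at day 10, and Hif1a lies between 69.4 and 103 CPM throughout.

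The 9 other hypoxia targets had 3 members called lower at day 7, 8 at day 8 and 3 at day 10. The matching shares of all genes were 2.09%, 6.64% and 12.3%. Bnip3, a receptor that directs mitochondria to autophagy, stood at 105 CPM in non-elongated organoids, and at 101 and 95.3 CPM in the elongated day 6 libraries, 11.8 CPM at day 7, 11.0 CPM at day 8 and 86.4 CPM at day 10. At day 10 it lay just under the day 6 libraries, with a log2 fold change of -0.18 ± 0.26 (SE). Ddit4, an inhibitor of mTORC1 signalling, stood at 74.4 CPM in non-elongated organoids, and at 87.0 and 133 CPM in the elongated day 6 libraries, 11.4 CPM at day 7, 5.70 CPM at day 8 and 18.0 CPM at day 10. Unlike Bnip3, it was still called lower at day 10 (log2 fold change -2.62 ± 0.36 SE, edgeR adjusted p = 0.00255). Mif, a cytokine and the second most abundant member, stood at 3070 CPM in non-elongated organoids, and at 3067 and 3741 CPM in the elongated day 6 libraries, 1720 CPM at day 7, 1410 CPM at day 8 and 1691 CPM at day 10. It was called lower at day 8 and day 10 (log2 fold changes of -1.27 and -1.01). Ankrd37, an ankyrin repeat gene induced by HIF, stood at 6.87 CPM in non-elongated organoids, and at 9.50 and 10.9 CPM in the elongated day 6 libraries, 2.42 CPM at day 7, 2.45 CPM at day 8 and 6.29 CPM at day 10, and it was called lower at day 7 and day 8. P4ha1 and P4ha2 encode subunits of the prolyl hydroxylases of collagen. P4ha1 stood at 21.7 CPM in non-elongated organoids, and at 32.1 and 27.7 CPM in the elongated day 6 libraries, 11.0 CPM at day 7, 7.62 CPM at day 8 and 21.7 CPM at day 10. P4ha2 stood at 19.6 CPM in non-elongated organoids, and at 17.4 and 10.8 CPM in the elongated day 6 libraries, 4.92 CPM at day 7, 3.08 CPM at day 8 and 4.44 CPM at day 10. At day 8 both were called lower, and at day 10 P4ha2 alone (log2 fold change -1.67 ± 0.42 SE, edgeR adjusted p = 0.0259). Bnip3l, the paralogue of Bnip3, stood at 300 CPM in non-elongated organoids, and at 338 and 255 CPM in the elongated day 6 libraries, 148 CPM at day 7, 137 CPM at day 8 and 212 CPM at day 10. Ndrg1, a stress response gene, stood at 7.58 CPM in non-elongated organoids, and at 4.15 and 2.08 CPM in the elongated day 6 libraries, 1.47 CPM at day 7, 0.311 CPM at day 8 and 1.40 CPM at day 10. Both were called lower at day 8 alone (log2 fold changes of -1.11 ± 0.30 and -3.31 ± 0.63 SE). The call of Bnip3l (edgeR adjusted p = 0.0475) was lost in 6 of 8 alternative settings. Vegfa, the main angiogenic ligand, stood at 9.72 CPM at day 7 and 26.9 CPM at day 10, its lowest and highest values, and was called at no day. Mif has 2 near-identical copies in the annotation.

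None of the 3 oxygen sensing genes was called at day 7, day 8 or day 10. Hif1a stood at 77.2 CPM in non-elongated organoids, and at 69.4 and 85.2 CPM in the elongated day 6 libraries, 103 CPM at day 7, 97.1 CPM at day 8 and 102 CPM at day 10. All 3 later libraries were above the day 6 libraries, by a log2 fold change of 0.33 to 0.41 with an SE of 0.27. HIF-1α is controlled mainly at the protein, which was not measured. Egln1, the main prolyl hydroxylase that marks HIF-1α, stood at 34.3 CPM at day 7 and between 53.6 and 89.2 CPM in the other libraries; its day 7 difference missed the threshold (log2 fold change -1.27 ± 0.28 SE, edgeR adjusted p = 0.0537). Egln3, itself a HIF target, ranged from 3.67 to 7.87 CPM. The Hif1a locus overlaps another annotated gene on the same strand, Gm49321.

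Between day 10 and day 8, Slc16a3, Pdk1 and Bnip3 rose, 3 of 37 members, against 0.171% of all genes called higher; none fell (0.0244% of all genes). Slc16a3 was 38.9 CPM at day 10 and 2.19 CPM at day 8 (log2 fold change 4.15 ± 0.34 SE, edgeR adjusted p = 0.0263), Pdk1 17.3 and 1.65 CPM (3.39 ± 0.42, adjusted p = 0.0428), and Bnip3 86.4 and 11.0 CPM (2.98 ± 0.32, adjusted p = 0.0263). Pfkp and Ldha came next and missed the threshold (log2 fold changes of 3.58 and 2.29, edgeR adjusted p = 0.0505 and 0.0632). Of the 37 members, 33 were higher at day 10 than at day 8, with a median log2 fold change of 0.89, and 16 were at least 2-fold higher (11.6% of all genes). The exceptions were Slc2a1, Slc16a1, Pdk3 and Gapdh. The calls rest on 1 library per day, and their number was 0 with a minimum count of 100 and in cells inside the common range, and 11 with DESeq2. Between day 8 and day 7, 0 members were called by edgeR (0.128% of all genes lower and 0.293% higher), 8 had an unadjusted p under 0.05, and DESeq2 called 5 lower and 1 higher.

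As a straight line over the days among the 5 elongated libraries, 3 of 37 members declined and 0 rose. Both counts lay under the shares of all genes, where 12.5% of 15775 genes declined and 11.3% rose. The 3 that declined were Slc16a1 (slope in log2 per day -0.52 ± 0.07 SE, edgeR adjusted p = 0.0118), Slc2a1 (-0.93 ± 0.23, adjusted p = 0.0376) and Gapdh (-0.32 ± 0.08, adjusted p = 0.0426). They are 3 of the 4 members that were not higher at day 10 than at day 8. The number called was 22 without the day 10 library, 1 without the batch 1 day 6 library and 0 without the batch 2 day 6 library.

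In the non-elongated library the members summed to 20700 CPM, which lay between the sums of the elongated day 6 libraries (21645 and 17951 CPM). The edgeR test could not decide whether members differ with elongation. It set 1 library against a pair that differs in batch and table, with 1 residual degree of freedom. Even the epiblast marker Pou5f1, at 234 CPM against 59.3 and 52.5 CPM, was not called. By edgeR 0 members and 0 of 16379 genes were called (0% of all genes in either direction), DESeq2 called 0 members, and 2 members had an unadjusted p under 0.05, against 1137 of all genes. The median log2 fold change over the members was 0.05. Ldhb had the smallest adjusted p, with 132 CPM in non-elongated organoids and 74.9 and 58.7 CPM in elongated organoids (log2 fold change 0.99 ± 0.27 SE, edgeR adjusted p = 0.414), and Ndrg1 the largest difference (1.29 ± 0.49). Against the batch 1 library of the same table, 0 members differed 2-fold (4.76% of all genes lower and 6.4% higher). Markers of epiblast summed to 521 CPM in non-elongated organoids and to 213 and 217 CPM in elongated organoids, and those of surface ectoderm to 1004 CPM against 280 and 147 CPM. Within the deposited cell classes of that table, the summed members, as CPM of the UMIs of the class, in non-elongated over elongated organoids gave ratios of 0.943 (caudal epiblast) to 1.06 (anterior epiblast), and 0.841 in surface ectoderm. The midbrain class held the highest sum in both, with 24267 CPM in non-elongated organoids and 24116 CPM in elongated organoids. Ldhb was highest in surface ectoderm in non-elongated organoids, at 331 CPM.

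The fall was present inside deposited cell classes, and so was the later increase, though not in all. Class values are CPM of the UMIs of the class, without TMM scaling, in classes of at least 50 cells, and each comes from 1 library, so no test was made. In the mid/hindbrain class, the largest, members summed to 17157 CPM at day 6 (batch 2), 7464 at day 7, 6317 at day 8 and 10432 at day 10. At day 7, 20 of 37 members were at least 2-fold lower there (3.05% of all genes), and 17 in the spinal cord class (3.07%). No class of the second table is named epiblast, while the epiblast markers summed to 217 CPM in its day 6 library and 213 CPM in the batch 1 day 6 library, where 2 classes carry that name. The part of such cells in the mid/hindbrain values was not tested. At day 10 the spinal cord class held the highest sum of all 11 classes, 14389 CPM, against 13878 at day 6 (batch 2) and 6557 at day 8. There, every one of the 37 members was higher than at day 8, 24 of them at least 2-fold (2.52% of all genes). In the spinal cord class Bnip3 stood at 53.6 CPM at day 6, 8.34 at day 7, 7.49 at day 8 and 159 at day 10, so its day 10 value lay above day 6. Ldha in that class stood at 1390 CPM at day 6, 277 at day 7, 133 at day 8 and 1289 at day 10. Slc2a1 did not follow: it stood at 508, 106, 93.7 and 113 CPM over the same days. The day 6 values of this class are those of batch 2. In the batch 1 day 6 library, a class also named spinal cord held 18153 CPM of the summed members. Ldha was at least 2145 CPM in each of the 6 classes of that library with at least 50 cells. How near the day 10 spinal cord sum and Ldha lay to day 6 thus depends on the day 6 library. In dorsal progenitor 2/3, dorsal interneuron 2 and dorsal interneuron 3 cells, the summed members at day 10 over day 8 gave ratios of 2.27, 2.07 and 2.15, and in mid/hindbrain 1.65. The pre-EMT cranial neural crest class differed least, with 6363 CPM at day 10 and 5993 at day 8 (ratio 1.06), and 4 of 37 members were at least 2-fold higher (4.38% of all genes). The lowest sum at day 10 was 5932 CPM in dorsal interneuron 1 cells. The classes also differ in cell number, from 52 to 2173 cells, and in depth.

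**Figure D3:**
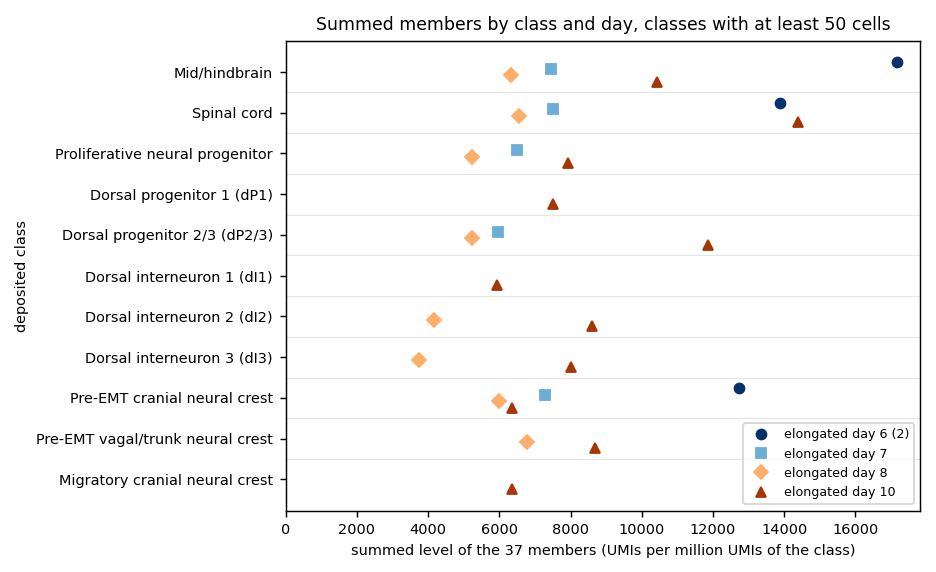
Summed level of the 37 members in UMIs per 1000000 UMIs of a class, for each deposited class of the second table with at least 50 cells (rows) in the elongated day 6 (batch 2), day 7, day 8 and day 10 libraries (symbols). Spinal cord cells reach 14389 at day 10, while pre-EMT cranial neural crest cells stand at 6363, near their 5993 at day 8 and below their 12741 at day 6.

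Isozymes of 1 step did not change in parallel, and the share of the UMIs of a pair shows this without any scaling between libraries. Shares are given with exact 95% binomial intervals, which cover counting error only. Ldhb made up 5.03% of Ldha and Ldhb UMIs in non-elongated organoids, and 2.90% and 3.17% in the elongated day 6 libraries, 7.74% at day 7, 49.9% (49.4% to 50.5%) at day 8 and 27.0% (26.7% to 27.3%) at day 10. At day 8, Ldhb and Ldha UMIs were thus nearly equal in number, and the share was also 52.1% in the neural progenitor classes alone. Slc16a3 made up 78.0% of Slc16a1 and Slc16a3 UMIs in non-elongated organoids, and 78.0% and 81.0% in the elongated day 6 libraries, 21.8% at day 7, 9.98% at day 8 and 75.0% at day 10. Hk2 made up 94.2% of Hk1 and Hk2 UMIs in non-elongated organoids, and 90.9% and 95.5% in the elongated day 6 libraries, 83.5% at day 7, 77.2% at day 8 and 69.7% at day 10. The day 10 share of Hk2 was 83.0% in the progenitor classes alone. At day 10, a neuron class, dorsal interneuron 3 cells, held the highest Eno2 (12.7 CPM), Hk1 (41.0 CPM) and Pfkp (66.7 CPM) of all 11 classes. Ldhb was highest at day 10 in migratory cranial neural crest cells (782 CPM), and no class had less than 181.

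**Figure D4:**
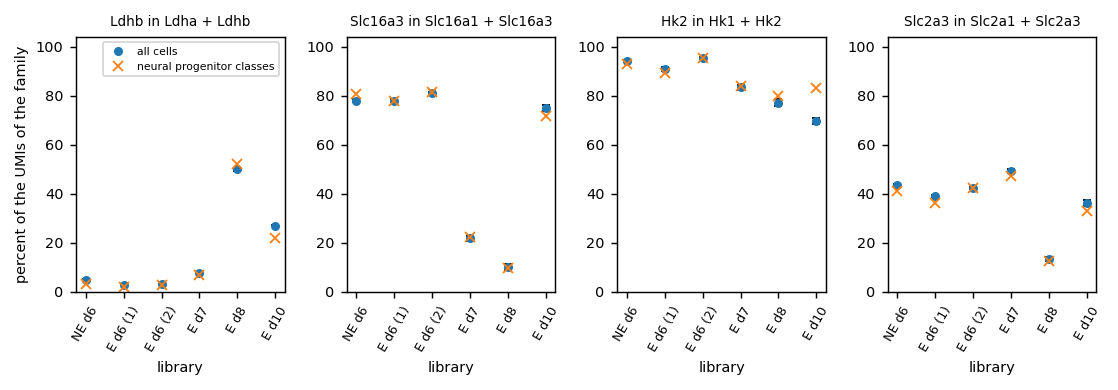
Share of a gene in the UMIs of its isozyme pair (percent) in 6 libraries, where NE is non-elongated, E is elongated and d is day; circles are all cells with exact 95% binomial intervals, crosses the neural progenitor classes alone. The Ldhb share is 49.9% at day 8, and the Slc16a3 share is 9.98% at day 8 and 75.0% at day 10.

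Across single cells, the members' share of a cell's UMIs covered a narrow range at day 7 and day 8 and a wide one at day 10. The median cell gave 1.96% of its UMIs to the 37 members in non-elongated organoids, and 2.03% and 1.64% in the elongated day 6 libraries, 0.728% at day 7, 0.601% at day 8 and 0.726% at day 10. At day 10 the cells from the 5th to the 95th percentile ran from 0.315% to 2.18%, which reaches above the median of every day 6 library. After each cell was thinned to 10000 UMIs (0 to 26 shallower cells left out per library), the variance of the members' count over its mean was 11.1 in non-elongated organoids, and 10.5 and 14.4 in the elongated day 6 libraries, 2.12 at day 7, 3.23 at day 8 and 39.2 at day 10. Without Gapdh, Mif, Ldha, Pkm and Pgam1, the 5 most abundant members, it was 6.21 in non-elongated organoids, and 6.37, 7.95, 1.23, 1.32 and 17.6 in the elongated libraries in the same order. A ratio of 1 is what counting alone gives. The ratio also grows with the mean count at the same relative spread. That mean was 206 and 168 in the elongated day 6 libraries, 73.0 at day 7, 59.3 at day 8 and 91.6 at day 10. The low ratios at day 7 and day 8 therefore do not by themselves show a smaller spread relative to the level. From the 5th to the 95th percentile the share ran from 1.34% to 2.83% in batch 1 and from 0.972% to 2.48% in batch 2 at day 6. It ran from 0.574% to 0.891% at day 7 and from 0.359% to 0.784% at day 8. Relative to the level, this range was narrower at day 7 than in either elongated day 6 library. At day 8 it was near that of batch 1 and narrower than that of batch 2. The wide spread at day 10 was found inside classes too: the ratio was 31.5 in spinal cord, 23.6 in mid/hindbrain and 50.9 in dorsal interneuron 3 cells, and lowest in pre-EMT cranial neural crest cells, at 8.82.

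**Figure D5:**
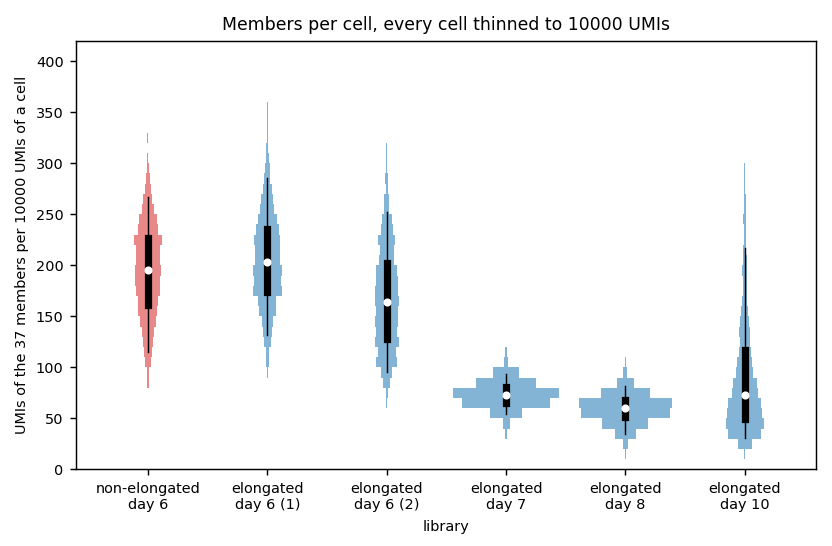
UMIs of the 37 members per 10000 UMIs of a cell in 6 libraries; the width of a shape gives the share of cells in bins of 10 UMIs, the white point the median, the thick bar the middle 50% and the thin line the 5th to 95th percentile. Day 7 and day 8 are low and narrow with medians of 73 and 60, and day 10 has the same median as day 7 with a tail to the level of day 6.

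The members varied together across the cells of the day 6 and day 10 libraries, and little at day 7 and day 8. Over the 190 pairs of the 20 most abundant members, the median Pearson r across thinned cells was 0.16 in non-elongated organoids, and 0.16 and 0.21 in the elongated day 6 libraries, 0.01 at day 7, 0.01 at day 8 and 0.40 at day 10. The pairs with r of at least 0.2 numbered 76 in non-elongated organoids, and 78, 99, 0, 7 and 153 in the elongated libraries in the same order. Pgk1 and Ldha were correlated at 0.54 in non-elongated organoids, and at 0.54, 0.68, 0.07, -0.06 and 0.73 in the elongated libraries. These are descriptions across cells that share a library, cells are not replicates, and the lower counts at day 7 and day 8 lower the r that can be seen.

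Other genes of the same and of neighbouring pathways followed in part. Of 30 other HIF targets, 8 fell at day 7, 13 at day 8 and 10 at day 10, while 2 rose at day 10; the median log2 fold changes were -1.07, -1.20 and -0.67. Fam162a, a mitochondrial protein gene induced by HIF, stood at 375 and 316 CPM in the elongated day 6 libraries, 80.6 CPM at day 7, 58.5 CPM at day 8 and 128 CPM at day 10. Mxi1, a MYC antagonist, rose at day 10 (52.3 CPM, against 13.2 and 12.8 CPM at day 6, edgeR adjusted p = 0.00274). Of 8 genes of the HIF machinery, 0 were called at day 7, 1 rose and 2 fell at day 8, and 1 rose and 1 fell at day 10. Arnt2, a neural partner of HIF-1α, rose at day 8 and day 10 (27.0 and 20.8 CPM, against 8.75 and 10.3 CPM at day 6). Cited2, which competes with HIF-1α for its coactivators, fell at day 8 (119 CPM, against 242 and 339 CPM at day 6). Hif3a, a paralogue of Hif1a, fell at day 8 and day 10 (log2 fold changes of -3.32 and -2.84); it lies under the level set for naming and was added after its values were seen. Of 11 genes of pyruvate entry into mitochondria, 2 rose at day 8, and 3 rose and 1 fell at day 10. Both subunits of the mitochondrial pyruvate carrier were among them: Mpc1 had 41.0 CPM at day 8 and 66.2 CPM at day 10, against 10.5 and 7.25 CPM at day 6, and Mpc2 had 114 and 112 CPM against 40.7 and 42.9 CPM. Of 16 citric acid cycle genes, 0 were called at day 7 and day 8 and 3 fell at day 10 (Fh1, Suclg2 and Idh3a, by 1.32, 1.03 and 0.94 on the log2 scale). Of 7 pentose phosphate genes, 0 were called at day 7 and day 8, and Tkt and Pgd fell at day 10. Of 12 other glycolysis isozymes and regulators that could be tested, 1 fell at day 7, 4 fell at day 8, and 3 fell and 1 rose at day 10. Eno3, the muscle enolase, fell at day 8 and day 10 (6.35 and 3.79 CPM, against 40.3 and 36.9 CPM at day 6). These counts are to be read against the shares of all genes called. Those were 2.09% lower and 1.9% higher at day 7, and 6.64% and 6.74% at day 8. At day 10 they were 12.3% lower and 14.1% higher. The HIF machinery at day 10, with 1 of 8 called each way, lay near these shares. The other HIF targets that rose at day 10, 2 of 30, lay under 14.1%.

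Other lists moved over the same days as the members. Of 12 dissociation and stress genes, such as Fos and Egr1, 7 fell at day 7, 9 at day 8 and 9 at day 10, and their sum was 2179 CPM in non-elongated organoids, and 2074, 1773, 614, 579 and 858 CPM in the elongated libraries in order of day. Of 12 genes of the ATF4 response to amino acid stress, Atf4 itself included, 2, 5 and 5 fell, and 1 rose at day 10. Epiblast markers fell at all 3 days (6 of 6), with sums of 213 and 217 CPM at day 6, 33.9 CPM at day 7, 16.2 CPM at day 8 and 8.91 CPM at day 10. Surface ectoderm markers fell as well (5, 7 and 7 of 7). Of all genes, 2.09% were called lower at day 7, 6.64% at day 8 and 12.3% at day 10, and 14.1% were called higher at day 10. The part of each of these lists in the members' change was not tested. Of the endothelium and blood lists, 2 of 5 and 2 of 6 symbols were in both tables, and they summed to at most 2.84 and 0.156 CPM in any library.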

How the data were processed

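Single-cell libraries of 6 organoid samples were read from the 2 tables of UMI counts that the authors deposited, with each cell's class, detected genes and percent of mitochondrial UMIs, also deposited by the authors. Per the submitters' processing notes, Cell Ranger 3.1 and the mouse build mm10 were used; how cells were filtered, doublets treated and classes assigned is not given in the sources used here. Classes were used as deposited, and no cell was removed. Where libraries are named differently in a table, the name was matched to its label (NENT to non-elongated and SENT to elongated day 6, batch 1). Counts were summed per library over 17296 shared symbols and fitted with edgeR 4.0.16 (TMM; filterByExpr with a minimum count of 10; group means; glmQLFTest; Benjamini-Hochberg over all genes tested). The biological coefficient of variation was 29.5%. Alternatives used DESeq2 1.42.0, other scalings, filters, cell ranges and left-out libraries. The exact shares of isozymes, class sums and thinned per-cell counts were computed in Python. The fit was tested on simulated data. The members and the other gene lists were chosen with earlier results of these data known. Named genes were members called in any comparison and isozyme pairs in full, others by range, and at most 3 per other list.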

Additional observations from a re-analysis of the deposited data

How the results depend on the processing

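Directions of called members held in every alternative except for Eno2 at day 10, whose log2 fold change was -0.19 in neural progenitor classes alone; the slope of Pfkp over day, 0.07 and not called in the full data, was -1.50 to 0.22 per day when 1 library was left out. The members called lower at day 7 numbered 8, against 17, in cells inside the common range of genes and mitochondrial share. Counts of members called higher at day 8 were 1, against 0, with RLE scaling, library size alone, DESeq2 and neural progenitor classes alone, and at day 10 they were 1, against 2, with DESeq2, no low-count filter, a minimum count of 100, neural progenitor classes alone, cells inside the common range and thinned libraries. Between day 8 and day 7, RLE scaling called 2 lower and 1 higher and DESeq2 5 lower and 1 higher, against 0. Between day 10 and day 8, RLE scaling called 5 higher, DESeq2 11, and a minimum count of 100 and the common range 0, against 3. For the trend, DESeq2 called 6 lower and 1 higher and a table term 1 lower, against 3 and 0; library size alone and the progenitor classes called 1 higher; leaving out 1 library gave 0 to 22 lower and 0 to 1 higher. Using 1 elongated day 6 library gave 0 to 3 members at least 2-fold higher in non-elongated organoids and 0 to 1 at day 8. Scaling by library size alone moved the median of all genes by 0.11, 0.13 and 0.24 (log2) at day 7, day 8 and day 10. No paired analysis was possible because the later days have 1 library each and the labels pair none of them. The fewest UMIs behind a member's value were 37, for Ndrg1 at day 8. The group comparisons rest on 1 residual degree of freedom and the trend on 3.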
